A study of Mus musculus with 29 samples.

Results

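Excitation-contraction coupling in skeletal muscle was followed here through 10 genes of the 22537 in the count table. They were taken by name, with no threshold on a measured value, although earlier results of these data were known when the list was made. They encode sarcolipin (Sln), the release channel Ryr1, the dihydropyridine receptor subunits Cacna1s, Cacng1 and Cacnb1, the junction proteins Jph1, Jph2, Trdn and Jsrp1, and the store sensor Stim1. All 10 had counts above 0 in each of the 29 libraries and passed the filter on low counts in every comparison. The libraries came from whole tibialis anterior (TA) muscle of male C57BL/6 mice from an ageing colony, for which no treatment or altered allele was labelled. Each old mouse gave 1 library, and each adult mouse gave 1 library in each sequencing run. A first sequencing run held 7 mice at 6 months (6m) and 7 at 24 months (24m). A second run held 8 mice labelled as 28 months or older (28m), beside freshly made libraries from the 7 adult mice. Each age was set against the adult libraries of its own run, to ask which of these transcripts differed between adult and old muscle.

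An action potential spreads along the transverse tubules, where the voltage-sensing dihydropyridine receptor faces the ryanodine receptor of the sarcoplasmic reticulum, and the 2 proteins touch, so that a voltage change opens the store and calcium starts contraction. Junctophilins hold the tubule and the store together, triadin and Jsrp1 (JP-45) anchor the complex, and SERCA pumps return the calcium. Sarcolipin is a small membrane peptide that binds SERCA and makes it spend ATP without moving as much calcium. In mice it is known as scarce in fast limb muscle such as the TA and more abundant in atria and slow muscle. Stim1 senses an emptied store and opens Orai1 channels in the surface membrane.

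Sln lies at chr9:53850164-53854560 on the plus strand of GRCm38 (mm10), and its reading frame is short enough to be shown whole. The frame lies in exon 2 of 2, at chr9:53853473-53853568, and its 96 bases encode 31 residues. The start and stop codons are in capitals in the GENCODE transcript.
Sln reading frame: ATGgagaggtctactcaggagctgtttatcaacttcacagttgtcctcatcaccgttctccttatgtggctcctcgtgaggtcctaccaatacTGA
RefSeq promoter entries of GRCm38.p6 were found for 5 of the 10 members, namely Cacna1s, Ryr1, Stim1, Jph2 and Cacnb1. Those of Cacna1s, Ryr1 and Stim1 are printed because the 5 lowest 28m values of each of these 3 lower members came from the same mice, replicates 1, 2, 3, 5 and 7. Jph2, also lower, did not share that order. Each run covers the bases from 250 to 71 before the RefSeq start and lies outside the GENCODE gene, and capitals mark E-boxes (CANNTG, the motif bound by myogenic factors, which reads the same on both strands).
Cacna1s, chr1:136052561-136052740, plus strand: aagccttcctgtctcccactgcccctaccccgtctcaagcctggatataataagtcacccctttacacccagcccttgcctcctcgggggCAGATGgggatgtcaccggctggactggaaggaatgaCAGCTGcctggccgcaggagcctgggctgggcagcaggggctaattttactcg
Ryr1, chr7:29125222-29125401, minus strand: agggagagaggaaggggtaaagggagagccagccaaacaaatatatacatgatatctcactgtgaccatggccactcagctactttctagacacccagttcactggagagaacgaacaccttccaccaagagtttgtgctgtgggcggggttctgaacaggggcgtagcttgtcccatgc
Stim1, chr7:102267569-102267748, plus strand: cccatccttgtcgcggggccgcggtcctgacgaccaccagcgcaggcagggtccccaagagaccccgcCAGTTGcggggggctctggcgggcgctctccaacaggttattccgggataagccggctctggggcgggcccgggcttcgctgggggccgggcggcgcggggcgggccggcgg
The Cacna1s window held 2 E-boxes, the Stim1 window 1 and the Ryr1 window 0, and both windows of Jph2, which are not printed, held 0. Of 32851 RefSeq promoter windows of the same length, 55.5% held at least 1 E-box and 20.8% at least 2. The MEF2 motif, searched on both strands and not overlapping an E-box, matched in 0 of the 3 windows and in 2.18% of all windows.

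Total counts were between 17633475 and 33499162 per library with a median of 24250878. Libraries differed in the balance of long and short transcripts. This was measured as the median log2 ratio to the 6m mean of the run in the longest of 5 equal bins of genes by length minus that in the shortest bin. It lay between -0.07 and 0.05 in the second-run 6m libraries and between -1.33 and -0.14 in the 28m libraries, so the groups did not overlap. First-run 6m replicate 4 (-0.77) and 24m replicate 4 (-1.33) stood apart from the rest of their run, whose values were between -0.19 and 0.29. The labelled tissue was checked with fast fibre markers, whose summed level was between 98230 and 172120 CPM (counts scaled to library size with TMM factors over all libraries), against 67.3 to 518 CPM for the slow fibre list.

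At 6m the members spanned a wide range of levels. Per kilobase of annotated exon (CPM per kb, over all exons of a gene, so that a gene with many alternative exons such as Trdn is understated), second-run Ryr1 was highest at 328 ± 24.4 (SD, n = 7). Jph2 followed at 271 ± 6.35, Jsrp1 at 264 ± 19.9, Cacna1s at 222 ± 17.0003, Cacng1 at 199 ± 4.45 and Trdn at 173 ± 6.64 CPM per kb. Jph1 reached 116 ± 4.96, Cacnb1 37.1 ± 1.61, Stim1 28.3 ± 1.03 and Sln 1.79 ± 2.08 CPM per kb. The ranges of neighbours in this order overlapped for Ryr1 and Jph2, for Jph2 and Jsrp1 and for Cacna1s and Cacng1, and the other neighbours were apart in all 7 mice. Sln was thus the rarest of the 10 transcripts in adult muscle.

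The preparations of the same 6m mice gave the error of the method. For Jph2, a junctophilin, the second library of a mouse differed from the first by at most 0.05 on the log2 CPM scale in any of the 7 mice. For Ryr1 the same difference was at most 0.32 in 6 mice, but it was 1.19 in the mouse numbered 4. The libraries of that mouse also differed by 1.09 for Cacna1s, 0.64 for Stim1, -0.71 for Jsrp1, -0.49 for Trdn and -0.37 for Cacng1 (log2, second over first). A single animal thus gave, between 2 preparations, a Ryr1 difference as large as those between ages that follow. Across all 7 mice, 0 of the 10 members differed between the 6m runs in edgeR with adjusted p-values, and 0 at an unadjusted p under 0.05. Of 12884 genes tested there, 0% passed, 357 genes had an unadjusted p under 0.05, and edgeR with the mouse as a block also called 0 members.

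At 28m, 8 of the 10 members differed from 6m in edgeR (quasi-likelihood test, Benjamini-Hochberg adjusted p-values under 0.05). Sln, Cacng1, Jsrp1 and Trdn were higher, and Ryr1, Cacna1s, Stim1 and Jph2 were lower. Of all 12994 genes tested, 47.3% passed, 24.3% as higher and 22.9% as lower. The median log2 fold change was -0.06 over the members and 0.01 over all genes. The groups did not overlap in 2 members, Cacng1 and Jph2, and in 12.4% of all genes tested. When each library was corrected for its dependence on length and GC content, 4 members were higher and 0 lower, where 21.6% of all 12870 genes were higher and 15.3% lower. Since the tissue was bulk muscle, fewer fibres of a type and less RNA per fibre cannot be told apart.

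**Figure D1:**
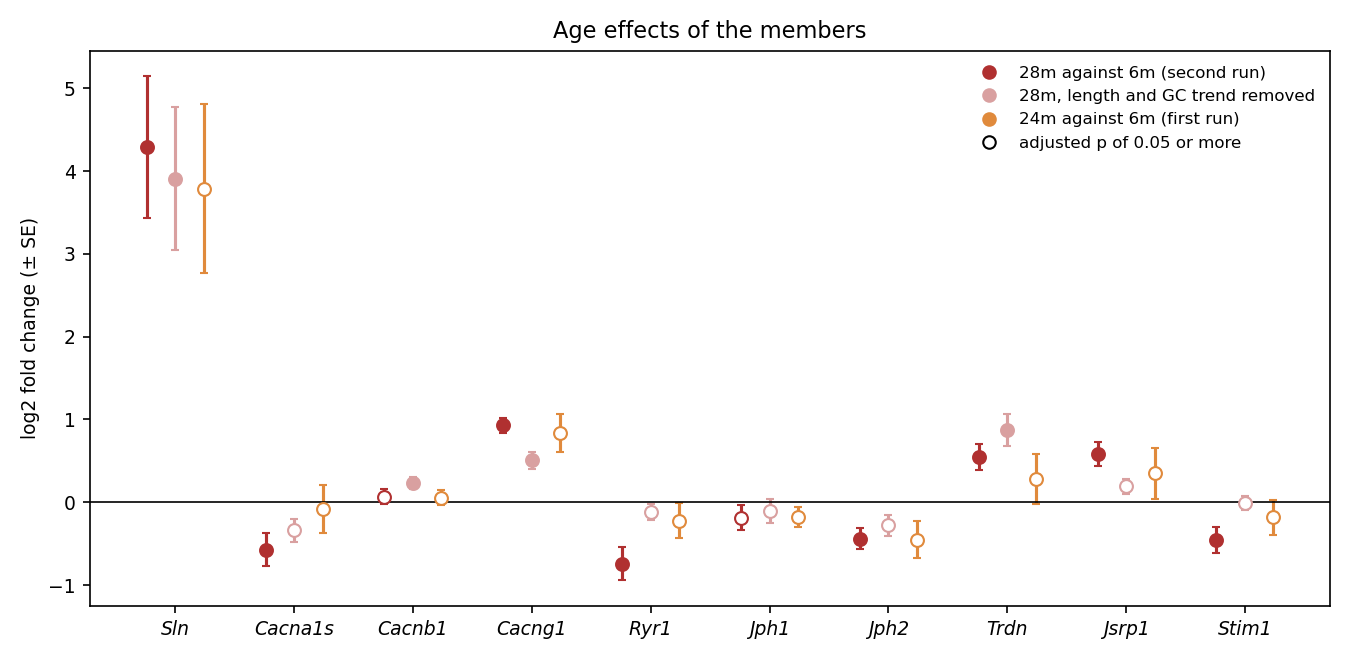
Log2 fold changes with standard errors (vertical axis) of the 10 members (horizontal axis) at 28m, at 28m with the length and GC trend removed, and at 24m. Filled points passed in edgeR. Sln stands at 4.29, 3.91 and 3.79, and the 4 members that were lower at 28m are all open once the trend is removed.

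Sln had the largest difference of the members. In the second-run 6m libraries it ranged from 0.512 to 8.44 CPM with a median of 1.351 (10 to 201 counts), and at 28m from 6.24 to 225 CPM with a median of 15.3 (148 to 5299 counts). All 28m mice but replicate 8 lay above every 6m library, and the overlap came from 6m replicate 2. That mouse was the highest at 6m in both preparations, at 9.17 and 8.44 CPM, while the other 6 mice stayed at or under 2.40 CPM in both. The log2 fold change was 4.29 ± 0.86 (SE, edgeR adjusted p = 0.00157), and it was 5.12 without 6m replicate 2 and 3.19 without 28m replicate 6, with every fit that left out 1 mouse passing. With the length and GC trend removed it was 3.91 (adjusted p = 0.00297).

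Sln varied more among old mice than any other member. Its highest 28m value was 36.1 times its lowest, against ratios between 1.49 for Cacng1 and 2.61 for Cacna1s in the other 9 members. That spread owed much to replicate 6 (225 CPM), since the next value was 50.8 CPM. Sln was also variable among adult mice, with a ratio of 16.5 in the second-run 6m libraries. The level relative to the fast SERCA pump Atp2a1, per length, had a median of 0.00877 Sln transcripts per 100 of Atp2a1 in the second-run 6m libraries and 0.126 at 28m. The highest of these ratios were 1.68 in 28m replicate 6 and 6.08 in 24m replicate 4. In the latter, Atp2a1 itself was at 5681 CPM, against 27956 CPM or more in the 6m libraries. Sln thus remained far below its target pump in every library. Relative to phospholamban (Pln), the related SERCA inhibitor of heart and slow muscle, the median ratio per length was 0.926 at 6m and 5.66 at 28m.

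**Figure D2:**
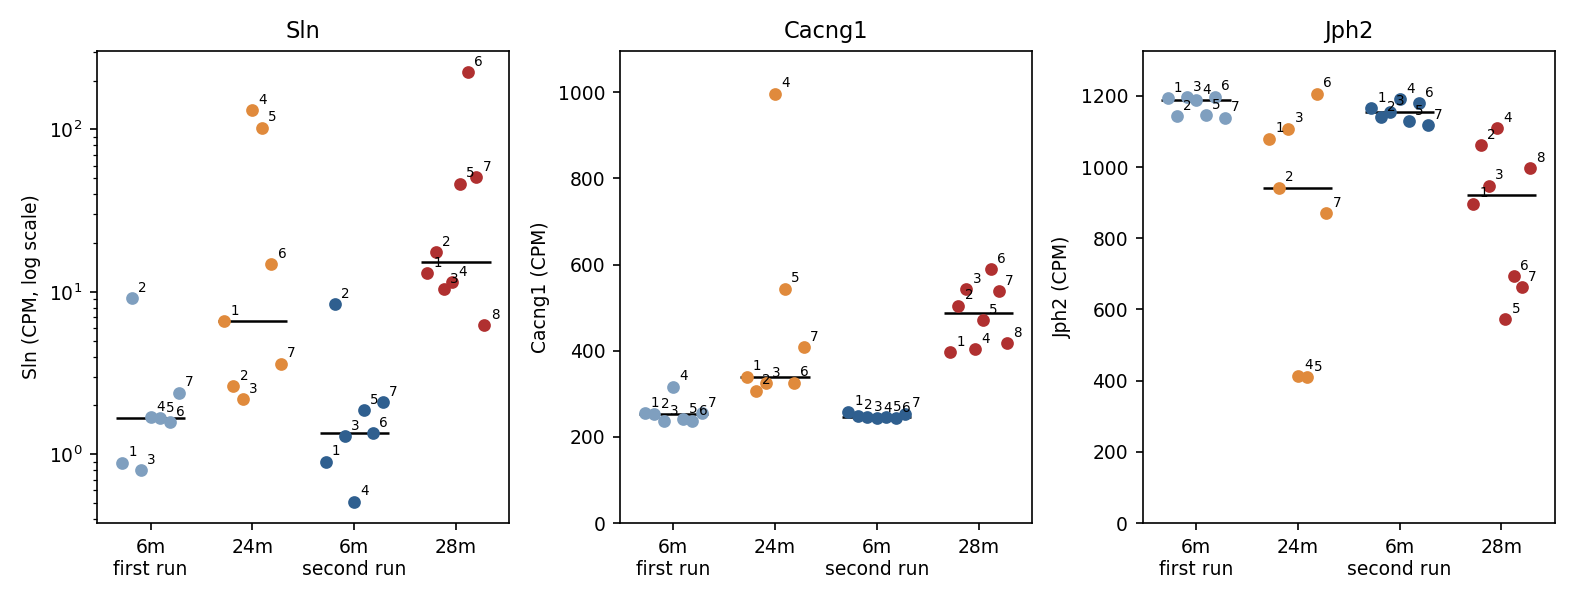
CPM of Sln (log scale), Cacng1 and Jph2 in each library by group, with replicate numbers beside the points and the group median as a line; equal numbers in the 6m groups are the same mouse. In the old groups, 24m replicates 4 and 5 and 28m replicates 5, 6 and 7 have the highest Sln and the lowest Jph2.

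Among the dihydropyridine receptor subunits, Cacng1 and Cacna1s differed in opposite directions. Cacng1 (chr11:107703218-107716522), the gamma subunit, which limits current through the channel, ranged from 244 to 259 CPM at 6m (median 246) and from 396 to 589.7 CPM at 28m (median 488). All 8 old mice lay above all 7 adult mice. The log2 fold change was 0.93 ± 0.09 (edgeR adjusted p = 3.7e-05), or 1.90-fold, and 0.51 ± 0.10 with the length and GC trend removed (adjusted p = 0.00177). Cacna1s (chr1:136052750-136119822), the pore and voltage sensor, ranged from 1236 to 1557 CPM at 6m (median 1489) and from 577 to 1503 CPM at 28m (median 909). Of the old mice, 5 lay below all adult mice and replicates 4, 6 and 8 lay within their range. It was 1.49-fold lower (log2 -0.57 ± 0.20, edgeR adjusted p = 0.0291), and the call was lost in 4 of 15 leave-one-out fits, up to an adjusted p of 0.0527, and with the trend removed (-0.34, adjusted p = 0.0678). Cacnb1 (chr11:98001508-98023034), the intracellular beta subunit that brings the channel to the membrane, ranged from 159.9 to 178 CPM at 6m and from 148 to 224 CPM at 28m, with medians of 167 and 179.5. Old mice lay on both sides of the adult range, and the log2 fold change of 0.07 ± 0.09 did not pass (adjusted p = 0.542), although it did with the trend removed (0.24, adjusted p = 0.0179). Per length, the median ratio of Cacng1 to Cacna1s transcripts was 0.869 at 6m and 2.61 at 28m.

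Ryr1 (chr7:29003344-29125179), the calcium release channel, ranged from 6053 to 7749.7 CPM at 6m (median 7335) and from 2675 to 6498 CPM at 28m (median 3817). Replicates 1, 2, 3, 5 and 7 were at 3836 CPM or less, and replicates 4, 6 and 8 at 5906 CPM or more, of which replicates 4 and 8 lay within the adult range. It was 1.67-fold lower at 28m (log2 -0.74 ± 0.20, edgeR adjusted p = 0.00773), with the call held in all 15 fits that left out 1 mouse. Stim1 (chr7:102267806-102437319) ranged from 277 to 308 CPM at 6m (median 293) and from 136 to 302 CPM at 28m (median 214), and its lowest values were in the same 5 mice. It was 1.37-fold lower (log2 -0.45 ± 0.16, edgeR adjusted p = 0.0274), and the call was lost without 28m replicate 5 (adjusted p = 0.0505). With the length and GC trend removed, neither gene passed (Ryr1 -0.11, adjusted p = 0.366; Stim1 -0.01, adjusted p = 0.954).

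The junction proteins also divided. Jph2 (chr2:163336242-163397993), a junctophilin, ranged from 1118 to 1191 CPM at 6m (median 1156) and from 573 to 1109.5 CPM at 28m (median 922.5), with every old mouse below every adult mouse. The lowest were replicates 5, 6 and 7, at 573 to 694 CPM. It was 1.355-fold lower (log2 -0.44 ± 0.13, edgeR adjusted p = 0.0122), and -0.28 with the trend removed (adjusted p = 0.0899). Jph1 (chr1:16964560-17097889), the other junctophilin, ranged from 547 to 614 CPM at 6m (median 590.5) and from 319 to 672 CPM at 28m (median 538). Its old mice lay above, within and below the adult range, and the log2 fold change of -0.19 ± 0.15 did not pass (adjusted p = 0.310).

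Trdn (chr10:33080554-33476709), which encodes triadin, ranged from 1527 to 1727 CPM at 6m (median 1627) and from 1639 to 3594 CPM at 28m (median 2393). Replicates 1, 2, 3, 5 and 7 lay above all adult mice and the other 3 within their range. It was 1.46-fold higher (log2 0.55 ± 0.16, edgeR adjusted p = 0.0105), and 0.87 ± 0.19 with the length and GC trend removed (adjusted p = 0.00276). That correction took its length over all alternative exons, so the larger value is uncertain. The call was lost with a dispersion estimated over all 29 libraries (adjusted p = 0.0637). Jsrp1 (chr10:80808496-80813498), whose protein binds the dihydropyridine receptor and calsequestrin, ranged from 319.9 to 383 CPM at 6m (median 349.9) and from 367 to 771 CPM at 28m (median 530.2). Replicates 1, 2, 3, 5, 6 and 7 lay above all adult mice. It was 1.501-fold higher (log2 0.59 ± 0.15, edgeR adjusted p = 0.00521), but 0.19 with the trend removed (adjusted p = 0.0970).

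The members' differences were set beside gene length because log2 fold changes at 28m fell with exonic length (Spearman rho = -0.539 over 12870 genes of known length; genes are not independent replicates). The median log2 fold change was 0.44 in the shortest bin of genes and -0.37 in the longest. Of the higher members, Cacng1 (1249 bases), Sln (1318 bases) and Jsrp1 (1333 bases) are short. Trdn (9352 bases) is long only by a count that takes in all its many alternative exons. The length of the transcripts made in this muscle was not measured, and the trend removal used the same count. The lower members were between 4255 bases (Jph2) and 21838 bases (Ryr1). Over the 8 old mice, the correlation between a member's log2 CPM and the library's length measure was 0.97 for Ryr1, 0.96 for Cacna1s, 0.95 for Stim1, -0.98 for Jsrp1 and -0.94 for Trdn. It was -0.17 for Sln, 0.32 for Jph1, 0.38 for Cacnb1, 0.46 for Jph2 and -0.51 for Cacng1 (Pearson r, n = 8 libraries that share the measure). Over the 7 mice at 24m the first 5 members had values of 0.93, 0.97, 0.96, -0.97 and -0.98, and the others -0.44 for Sln, 0.11 for Jph1, -0.40 for Cacnb1, 0.39 for Jph2 and -0.74 for Cacng1. Whether the balance of long and short transcripts came from the muscle or from the RNA and its handling was not tested.

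**Figure D3:**
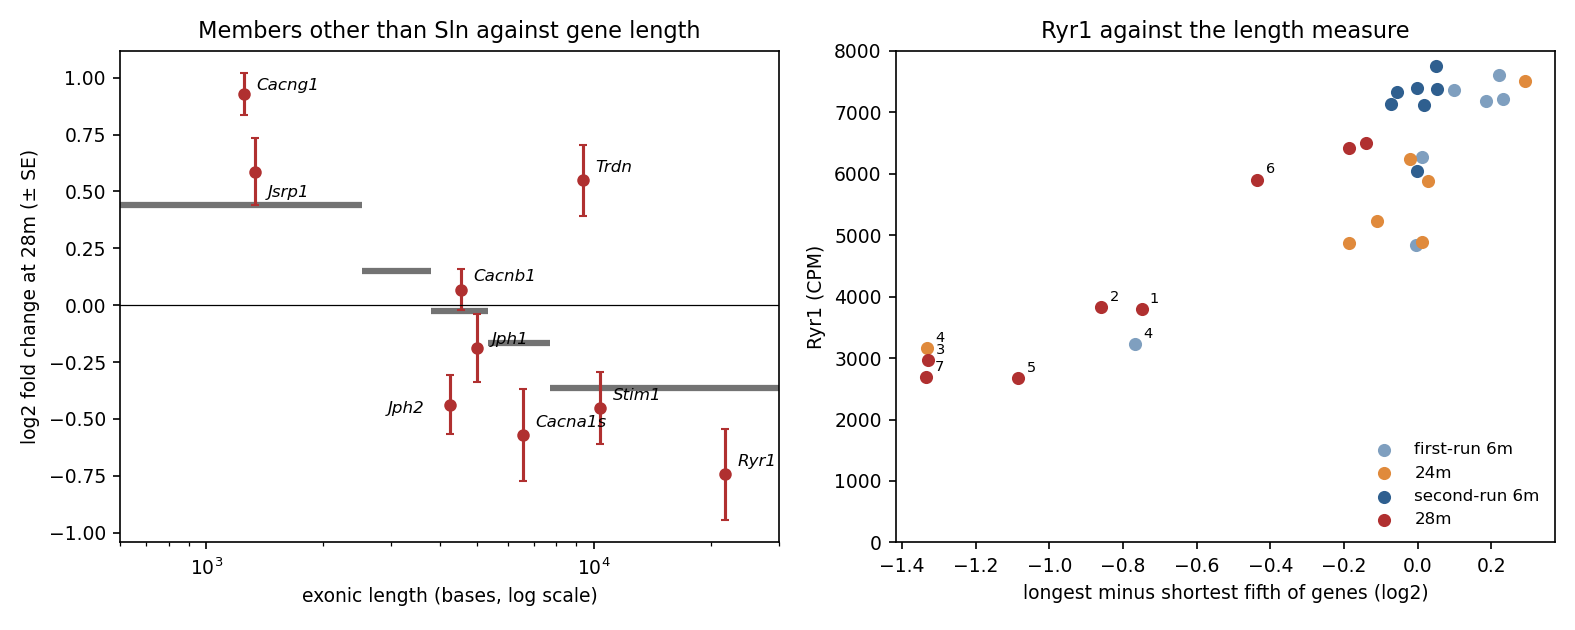
Left, log2 fold change at 28m with its standard error against exonic length for the members other than Sln, with grey bars for the median of all genes in each of the 5 length bins. Right, Ryr1 CPM of each library against the length measure, the longest minus the shortest bin of genes. The libraries with the lowest Ryr1 lie at the left, first-run 6m replicate 4 among them at 3234 CPM.

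At 24m, 0 of the 10 members passed in edgeR after adjustment, where 0.084% of 13103 genes did. Sln and Cacng1 had unadjusted p-values under 0.05 (2 of the 10 members, and 1546 of all 13103 genes). DESeq2 called both, where it called 1.13% of 19019 genes, and limma-voom called 0. No member separated the groups, as 0.588% of all genes did. Sln ranged from 2.19 to 131 CPM at 24m (median 6.63) and from 0.804 to 9.17 CPM in the first-run 6m libraries (median 1.67), with replicates 4, 5 and 6 above all adult mice. Its log2 fold change was 3.79 ± 1.02 (edgeR adjusted p = 0.201, DESeq2 adjusted p = 0.00699). Cacng1 ranged from 308 to 997 CPM (median 339.9) against 236 to 317 CPM (median 252), with 6 of 7 old mice above all adult mice, and its log2 fold change was 0.84 ± 0.23 (edgeR adjusted p = 0.213). Without both first-run libraries numbered 4, a choice made after seeing the data, Cacng1 passed (0.60, adjusted p = 0.0474), and Sln was at 2.96 (adjusted p = 0.151).

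Single mice lay far out in several other members at 24m. Replicate 4 had the highest Trdn (5797 CPM, against 1259.9 to 1921 in the other 6) and Jsrp1 (1334 CPM), and the lowest Ryr1 (3159 CPM), Cacna1s (335 CPM) and Stim1 (92.0 CPM). Replicate 5 had, in contrast, the highest Cacna1s (2133 CPM) and Ryr1 (7509 CPM) of its group. Both had the lowest Jph2 of all 29 libraries, at 414 and 409.9 CPM, where the first-run 6m libraries lay between 1139 and 1198 CPM. Jph2 was below all adult mice in 6 of 7 old mice and above them in replicate 6, with a log2 fold change of -0.45 ± 0.23 (edgeR adjusted p = 0.440). Jph1 was below all adult mice in 5 of 7 old mice and above them in replicate 6. Cacnb1 was above all adult mice in 4 old mice and below them in replicate 7. The log2 fold changes of the remaining members were between -0.22 for Ryr1 and 0.35 for Jsrp1. Without replicate 4, Trdn was at -0.19 and Jsrp1 at -0.11, both with the opposite sign and neither passing.

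Whether the age effects at 28m and 24m differed was tested in a model of all 29 libraries, in which each effect was taken against the 6m libraries of its own run. In edgeR, 0 of the 10 members passed after adjustment, 0 had an unadjusted p under 0.05, and limma-voom with the mouse as a block called 0. Of 13455 genes 0% passed and 1611 had an unadjusted p under 0.05. The differences (28m effect minus 24m effect, log2) were between -0.51 ± 0.29 for Ryr1 and 0.50 ± 1.28 for Sln. Without 24m replicate 4, those of Jsrp1 (0.73) and Trdn (0.77) passed, both at an adjusted p of 0.0389. The 2 effects share the 6m mice. Jph2 had similar values in both, -0.44 and -0.45, as had Cacng1, 0.93 and 0.84. The Cacng1 value at 24m was 0.55 without 24m replicate 4, and its difference in effects was then 0.41 (edgeR adjusted p = 0.0697).

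How the members varied together among mice of the same age was described by the correlation of log2 CPM after the group mean was subtracted, over the 15 libraries of the second run and the 14 of the first. Ryr1, Cacna1s and Stim1 moved together (r between 0.90 and 0.97 in the second run and between 0.82 and 0.98 in the first), opposite to Trdn and Jsrp1 (between -0.95 and -0.85, and between -0.93 and -0.75). These 5 members also followed the length measure most closely. Sln moved opposite to Jph2 (-0.66 and -0.79) and Jph1 (-0.65 and -0.62) and with Cacng1 (0.58 and 0.75). Cacng1 was also correlated with Jsrp1 (0.51 and 0.84), Trdn (0.37 and 0.79) and Stim1 (-0.39 and -0.77), more so in the first run. The junctophilins moved together (0.93 and 0.85). Sln had r = -0.18 and -0.21 with Ryr1, -0.05 and 0.47 with Trdn, -0.02 and 0.50 with Jsrp1, and 0.38 and 0.64 with Cacnb1. The groups of members were thus less distinct over the first-run libraries. Those include 24m replicate 4, the highest of its group in Cacng1 (997 CPM), Trdn (5797 CPM), Jsrp1 (1334 CPM) and Sln (131 CPM). In 24m replicate 5, next highest in Cacng1 and Sln, Trdn was the lowest of the group (1260 CPM). The correlations were not computed without replicate 4.

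The 5 old mice with the highest Sln, 24m replicates 4 and 5 and 28m replicates 5, 6 and 7, were also those with the lowest Jph2 of their ages. Of these, 28m replicate 6 had Ryr1 at 5906 CPM and Trdn at 1658 CPM, within or just under the adult ranges, and the highest Sln of all, while 28m replicate 3 had Ryr1 at 2972 CPM and Trdn at 3594 CPM with Sln at 10.4 CPM. In these 2 mice, high Sln and low Ryr1 did not occur together, nor did they in 24m replicate 5, with Ryr1 at 7509 CPM. They did occur together in the other mice with high Sln. Ryr1 was lowest of its age in 28m replicates 5 and 7 (2675 and 2688 CPM) and in 24m replicate 4 (3159 CPM). These correlations describe libraries that share depth and scaling and were not tested.

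**Figure D4:**
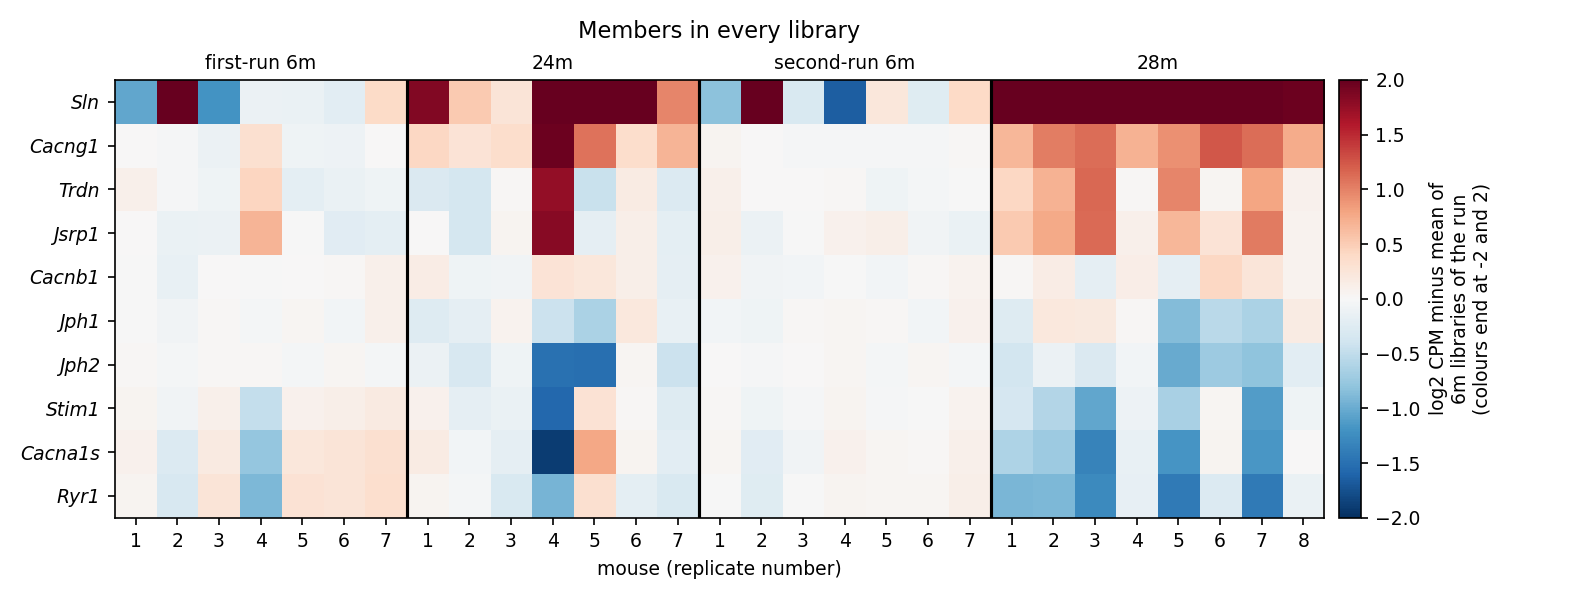
Log2 CPM of each member (rows) in each library (columns, by group and replicate number) minus the mean of the 6m libraries of the same run, with colours ending at -2 and 2. First-run 6m replicate 4 differs from its own second-run library, and 24m replicates 4 and 5 share low Jph2 and high Sln but not Ryr1 or Trdn.

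The genes most like Sln were taken as the 5 with the highest correlation over the second-run libraries after group means were subtracted, among the genes tested at 28m. These were Maged1 (r = 0.91), Ttc9 (0.90), H19 (0.90), Emb (0.89) and Tnnt2 (0.89), over 15 libraries. In the 14 libraries of the first run, their values were 0.75, 0.87, 0.74, 0.63 and 0.73, and Ttc9 had the highest place, 31 of 12993 genes ranked. The choice did not use these libraries, but the 6m mice were the same in both runs, so they are not an independent check. Among those mice, replicate 2 stood apart for Sln in both preparations. Tnnt2 encodes the cardiac troponin T that is also made in developing muscle, and H19 is an imprinted noncoding RNA. At 28m, Ttc9 (log2 1.53 ± 0.38, edgeR adjusted p = 0.00452), Tnnt2 (1.27 ± 0.31, adjusted p = 0.00433) and Emb (1.36 ± 0.47, adjusted p = 0.0268) were higher, while Maged1 (0.51 ± 0.23, adjusted p = 0.0752) and H19 (0.50 ± 0.44, adjusted p = 0.356) did not pass.

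Around the 10 members, a list of 64 further genes of calcium handling and excitability was examined, of which 62 could be tested at 28m. In edgeR, with adjustment over all genes, 14 were higher, 18 lower and 30 did not pass, against 24.3% and 22.9% of all genes. Their median log2 fold change was -0.04. Median exonic length was 2844 bases among the higher genes and 10869.5 bases among the lower ones. With the length and GC trend removed, 7 of the 14 and 11 of the 18 passed in the same direction. Calm2, a calmodulin gene named here after its values were seen, was higher at 0.31 ± 0.12 (edgeR adjusted p = 0.0453) and lower once the trend was removed (-0.25 ± 0.07, adjusted p = 0.0148).

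The accessory proteins of the 2 channels were examined first. Of 4 genes listed with the dihydropyridine receptor, 2 were lower, Cacna1h, a T-type calcium channel, at log2 -0.97 ± 0.25 (edgeR adjusted p = 0.00665) and Cacna2d1, the alpha2-delta subunit, at -0.51 ± 0.14 (adjusted p = 0.00819). Cacna2d1 did not pass with the trend removed (adjusted p = 0.205). Stac3, the adaptor needed for coupling, was at -0.03 ± 0.08 and did not pass (adjusted p = 0.764). Of 7 tested genes around the ryanodine receptor, 3 were higher, with S100a1 (0.76 ± 0.18), a calcium sensor that binds Ryr1, and Fkbp1a (0.36 ± 0.12), which stabilises the closed channel, among them. Of these, Fkbp1a kept the call with the trend removed and S100a1 did not (adjusted p = 0.339). Ryr3 (-0.75 ± 0.28, adjusted p = 0.0363) was the only lower one and lost the call with the trend removed (-0.20, adjusted p = 0.530).

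At the store and the tubule, genes rose and fell. Of 8 junction and store genes, Speg (-0.93 ± 0.20), a kinase of the junction, and Sypl2 (-0.53 ± 0.11), mitsugumin 29, were lower and kept the call with the trend removed, and Tmem38b (0.37 ± 0.11), a potassium channel of the store, was higher but lost the call then (adjusted p = 0.0650). The calsequestrins, which buffer calcium in the store, did not pass (Casq1 0.01 ± 0.12, adjusted p = 0.941; Casq2 0.27 ± 0.23, adjusted p = 0.332). Of 8 genes for the upkeep of the tubules, Bin1, which bends the tubule membrane, was higher (0.54 ± 0.11, edgeR adjusted p = 0.00146). It passed with the trend removed as well (0.63).

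The pump and its inhibitors bear on Sln most directly. Of 6 tested genes, Pln was higher (0.65 ± 0.15, edgeR adjusted p = 0.00290, and 0.34 with the trend removed, adjusted p = 0.0468), in 5 of 8 old mice above all adult mice. Pln nevertheless stayed at 7.02 CPM or less at 28m. Srl (-0.60 ± 0.15), sarcalumenin, and Atp2a3 (-0.51 ± 0.13) were lower. Atp2a1, the fast fibre pump, was at -0.33 ± 0.14 (adjusted p = 0.0560), Atp2a2, the slow fibre and heart pump, at -0.04 ± 0.26 (adjusted p = 0.911), and the inhibitory peptide gene Mrln at 0.31 ± 0.28 (adjusted p = 0.377), and none of these 3 passed. Strit1, which encodes another peptide of the pump, was matched to no entry.

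Calcium removal and entry made up the remaining roles. Of 6 genes for buffering and extrusion, 4 were lower, among them the plasma membrane pumps Atp2b4 (-1.14 ± 0.13, adjusted p = 7.2e-05) and Atp2b3 (-1.08 ± 0.29), both also with the trend removed. Pvalb, parvalbumin, the soluble calcium buffer of fast fibres, was higher (0.62 ± 0.18, adjusted p = 0.0126) but not with the trend removed (0.02, adjusted p = 0.911). Of 6 genes for mitochondrial uptake, 4 were higher and 0 lower, with Smdt1 (0.76 ± 0.16), a subunit of the uniporter, passing in both fits, and the pore gene Mcu was at -0.02 ± 0.11 (adjusted p = 0.898) and passed only with the trend removed (0.25, adjusted p = 0.0300). Of 10 genes for store-operated entry, Orai1 (0.29 ± 0.08, adjusted p = 0.00858), the channel that Stim1 opens, and Saraf (0.45 ± 0.10), which limits that entry, were higher, and Homer2 (-0.72 ± 0.09) and Homer1 (-0.61 ± 0.13), scaffold proteins, were among 3 lower. With the trend removed Saraf passed, while Orai1 (adjusted p = 0.249) and the 3 lower genes did not.

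Of 7 genes for excitability of the surface membrane, 3 were lower and 1 higher. Scn4a, the sodium channel of muscle, was 2.16-fold lower (log2 -1.11 ± 0.31, edgeR adjusted p = 0.00876), and Clcn1, the chloride channel, was lower too (-1.0004 ± 0.33, adjusted p = 0.0206). Both passed with the trend removed, at -0.88 each. At 24m, 0 of the 62 tested genes passed by edgeR, and the named gene with the lowest adjusted p was Homer1 (-0.35, adjusted p = 0.311).

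**Figure D5:**
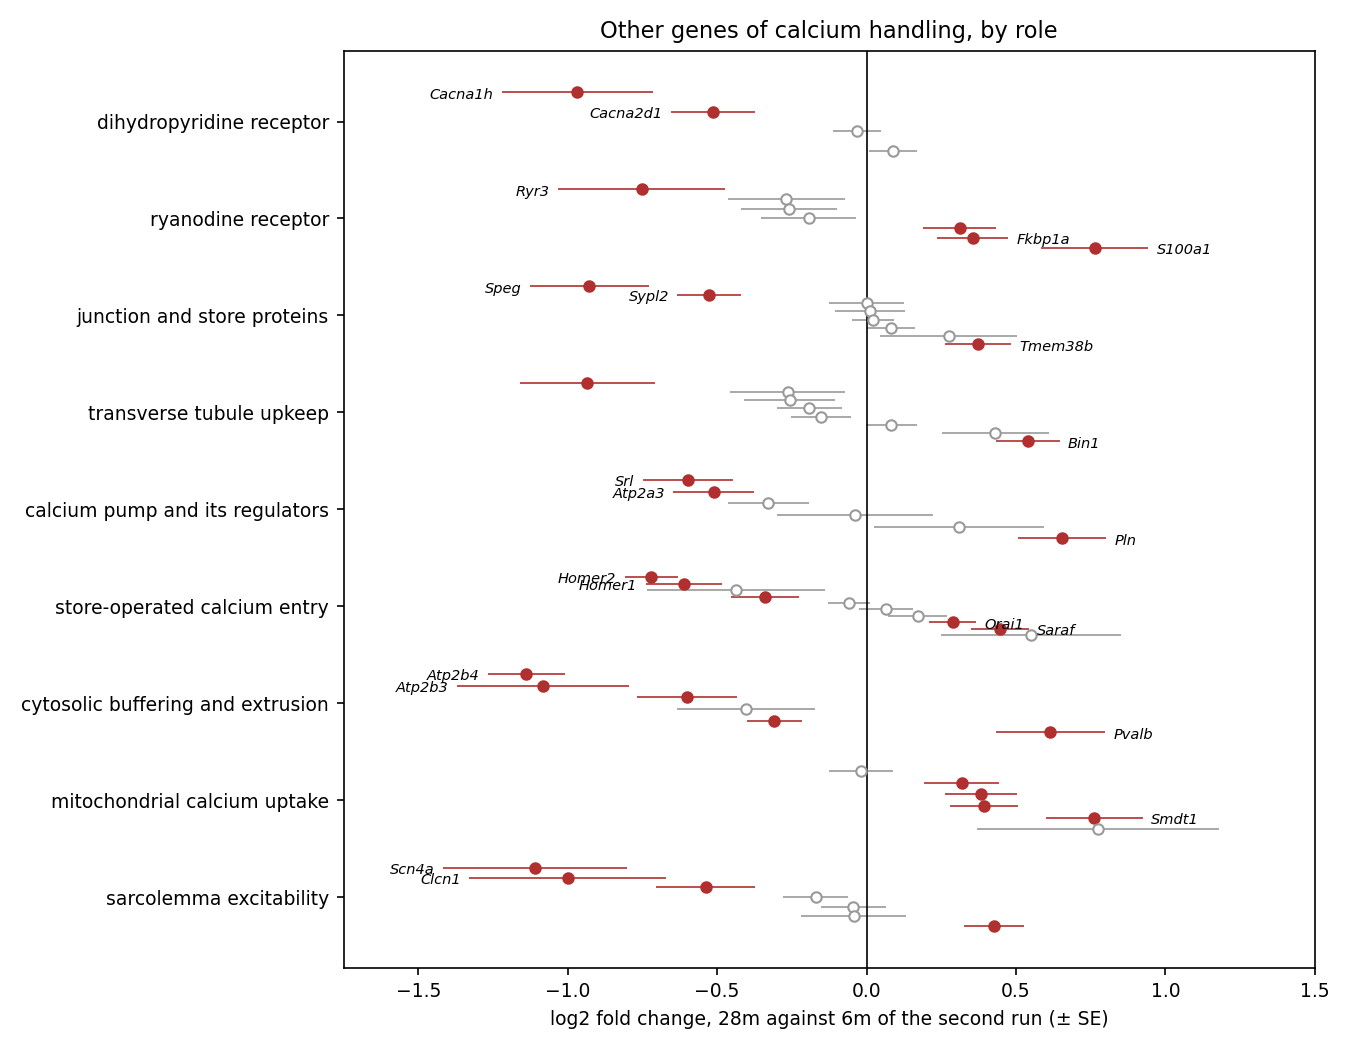
Log2 fold change at 28m with its standard error (horizontal axis) for the 62 tested genes of calcium handling, grouped by role. Red points passed in edgeR (14 higher, 18 lower), open points did not, and names are given for some of the called genes.

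Markers of fibre type, innervation and other cells were set beside the members, to be read against the 47.3% of all genes called at 28m, and their part in the members' differences was not tested. The markers were not examined with the length and GC trend removed, so how far their calls follow gene length was not tested. Of 13 denervation response genes, 6 were higher and 1 lower at 28m. The summed level of that list was between 93.6 and 185 CPM in the second-run 6m libraries and between 118 and 704 CPM at 28m. Chrng, the fetal acetylcholine receptor subunit, had its highest values in 24m replicate 5 (32.1 CPM), 24m replicate 4 and 28m replicate 6 (14.1 CPM), all of them among the mice with high Sln. In contrast, 28m replicates 5 and 7, also high in Sln, had less Chrng than 28m replicate 4, and 24m replicate 7, with Sln at 3.62 CPM, had more Chrng than every 28m mouse but replicate 6. Its within-group correlation with Sln was 0.79 in the second run and 0.78 in the first. Myog was 4.25-fold higher at 28m (edgeR adjusted p = 0.00248), and its correlation with Sln was 0.55 and 0.63.

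Of 8 slow fibre genes, 4 were higher and 1 lower, with a summed level of 67.7 to 122 CPM at 6m and 84.0 to 205 CPM at 28m. Myh7, the slow myosin, was at log2 0.24 ± 0.39 (adjusted p = 0.626) and had a correlation with Sln of -0.05 in the second and 0.02 in the first run. Other slow fibre genes, named after their values were seen, differed in this. Tnni1, the slow troponin I, was higher at 28m (1.31 ± 0.46, edgeR adjusted p = 0.0270) and had correlations with Sln of 0.76 and 0.78, and Myl2 had -0.10 and 0.35. Of 10 fast fibre genes, 5 were higher and 1 lower, and their summed level was between 137574 and 150842 CPM at 6m and between 134837 and 172120 CPM at 28m. Myh4, the myosin of the fastest fibres, was 1.40-fold lower (edgeR adjusted p = 0.0119), and its within-group correlation was 0.86 in the second run and 0.87 in the first with Jph2, 0.81 and 0.83 with Jph1, 0.82 and 0.42 with Ryr1, 0.71 and 0.49 with Cacna1s, and -0.55 and -0.60 with Sln, across libraries that share scaling.

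Without removal of the length and GC trend, the endothelial list was lower in 5 of 5 genes (396 to 454 CPM at 6m and 195 to 326 CPM at 28m) and the fibroblast list in 3 of 6 (535 to 2772 and 318 to 1162 CPM). One of 5 adipocyte genes was higher (154 to 166 and 142 to 479.9 CPM), as was 1 of 5 Schwann cell genes (31.8 to 45.9 and 26.8 to 49.0 CPM). Of the immune genes 0 of 5 tested passed (20.1 to 62.8 and 27.3 to 212 CPM), and of the satellite cell genes 1 of 3 tested was lower (7.35 to 12.2 and 5.47 to 9.86 CPM). No marker was at 0 in every library of a group.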

How the data were processed

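Poly-A RNA of whole TA muscle was sequenced with 75-base single-end reads in 29 libraries from 22 mice. The authors converted base calls with bcl2fastq 2.20, aligned reads to mm10 with STAR 2.5.4b and deposited raw counts per gene symbol, without normalization, and per the labels used DESeq2 1.22.2 in R 3.5.1 for their own calls. The strand setting is not given in the sources used here, so counts of Cacna1s, Cacnb1, Ryr1 and Jph1, which overlap antisense genes, are uncertain. The labels give a smaller RNA input than the methods, and the design text gives the numbers of 24m and 28m mice in reverse, so the labels of single samples were used.

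Counts were tested with edgeR 4.0.16 in R 4.3.3 (filterByExpr, TMM over the libraries of a comparison, quasi-likelihood F test, Benjamini-Hochberg adjustment at 0.05). Standard errors were derived from the F statistic. CPM of single libraries was scaled by TMM over all 29 libraries, and log2 CPM used a prior count of 2. Dependence on length and GC content was corrected with natural splines of 5 degrees of freedom per library. Alternatives were DESeq2 1.42.0, limma-voom (limma 3.58.1), other scalings, filters, dispersions and controls, thinned counts and leaving out each mouse. The 6m libraries of a mouse were paired by their numbers and column names. Their log2 CPM was correlated over genes after the 6m mean of each run was subtracted, so r describes deviations between mice. It was 0.22 in the mouse numbered 4 and between 0.46 and 0.81 in the others. Positions and lengths came from GENCODE vM21, matched by symbol or synonym. Figures used matplotlib 3.10.9. Fits were tested on simulated data.

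The members, lists and comparisons were chosen with earlier results of these data known. Named genes were all 10 members, 12 pathway genes whatever their values, in each role at most 2 higher and 2 lower genes with the largest differences among those called at 28m, 4 markers, and the 5 genes most correlated with Sln. A few genes that this rule picks are not reported here by name.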

Additional observations from a re-analysis of the deposited data

Results flagged for a closer look

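In the 40 combinations of a member and a group of 7 or 8 libraries, 12 values stood apart from the rest of their group by Dixon's criterion, which chance meets in about 1 of 20 groups. First-run 6m replicate 4 held 4 of them, with Cacng1 at 317 CPM, Trdn at 2304 CPM and Jsrp1 at 606 CPM above, and Stim1 at 195 CPM below the other libraries of the group. The second library of the same mouse did not stand apart in any member. The 24m replicate 4 held 4, in the same genes and directions, with Cacng1 at 997 CPM, Trdn at 5797 CPM, Jsrp1 at 1334 CPM and Stim1 at 92.0 CPM. These 2 libraries also had the lowest length measure of their run, and its part in these values was not tested.

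The 6m replicate 2 was the highest for Sln in both preparations, at 9.17 CPM in the first and 8.44 CPM in the second run, and the lowest for second-run Ryr1, at 6053 CPM. At 28m, replicate 6 stood apart for Sln, at 225 CPM, where the next value was 50.8 CPM. No member had age effects that differed between 28m and 24m in the test across all genes.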

How the results depend on the processing

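At 28m, members called lower numbered 4 and members called higher 4, among 6140 genes called in all. The lower count became 1 with a dispersion estimated over all 29 libraries (Ryr1; 5365 genes in all), 1 with the 6m libraries of the other run (Jph2; 2981 genes in all), which include first-run replicate 4, and 0 with the trend with length and GC content removed (4746 genes in all). Leaving out single mice gave 2 to 4, with 2 without 28m replicate 5 (Ryr1 and Jph2). The higher count was 3 with the dispersion over all libraries, where Trdn did not pass (adjusted p = 0.0637), and became 2 with the 6m libraries of the other run (Sln and Cacng1). Trend removal left the higher count at 4, with Cacnb1 in the place of Jsrp1. Sln and Cacng1 passed at 28m in every alternative run. DESeq2, limma-voom, robust dispersion, both other scalings, both other filters and thinned counts gave the same 8 members. Pathway genes called lower at 28m fell from 18 to 10, and those called higher from 14 to 7, with the 6m libraries of the other run, where calls over all genes fell from 2981 to 1422 and from 3159 to 1559.

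At 24m, the count of members called was 0 by edgeR, 2 with DESeq2, 1 with the dispersion over all libraries (Cacng1) and 1 without both first-run libraries numbered 4 (Cacng1), the last chosen after seeing the data. The count of members whose age effects differed was 0, and leaving out single mice gave 0 to 2, with 2 without 24m replicate 4. The mouse as a replicate block gave 0 members in that comparison and 0 in that of the 6m runs and changed no call. Among the members no called value changed sign. Of the pathway genes, Calm2 did so when the length and GC trend was removed, from 0.31 to -0.25 on the log2 scale, called both times. The cause of these changes was not tested. The fewest counts of any member were 10, for Sln at 6m, where counting error was largest.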

Other observations

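Ratios between members of one complex, taken per length within a library, differed in their spread. The ratio of Jph1 to Jph2 transcripts was between 0.404 and 0.468 in the second-run 6m libraries and between 0.453 and 0.594 at 28m. It reached 0.880 in 24m replicate 4 and 0.777 in 24m replicate 5, whose other 5 mice lay between 0.383 and 0.509. The ratio of Trdn to Ryr1 was between 0.483 and 0.628 in the second-run 6m libraries, and at 28m it was between 0.597 and 0.655 in replicates 4, 6 and 8 and between 1.33 and 2.82 in the other 5 mice. In first-run 6m replicate 4 it was 1.66, and in the second library of that mouse 0.517. The ratio of Cacng1 to Cacna1s was 15.6 in 24m replicate 4 and between 1.27 and 1.996 in the other 24m mice. In the first-run 6m libraries it was 2.30 in replicate 4, 1.29 in replicate 2 and between 0.838 and 1.02 in the others. Without both libraries numbered 4, the ranges overlapped only between 1.27 and 1.29. These ratios were looked at after the values were seen, and none was tested.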
